A study of Mus musculus with 3 samples.

Results

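The nuclear genes for subunits of the mitochondrial respiratory chain and ATP synthase were examined in mouse haematopoietic stem and progenitor cells. Members were chosen by symbol alone: names that start with Nduf, Uqcr, Atp5 or Cox4 to Cox8, together with Sdha, Sdhb, Sdhc, Sdhd, Cyc1 and Cycs, without the Ndufaf assembly factors. This gave 88 of the 24982 gene symbols measured. Of these, 37 belong to complex I, 4 to complex II, 9 to complex III, 20 to complex IV and 17 to complex V, and Cycs encodes cytochrome c. Ndufa4 and its paralogue Ndufa4l2 were counted with complex IV, where the Ndufa4 protein is now placed. Ndufb4c in complex I and Atp5s in complex V were counted by name, without a role in the complex.

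The cells were LKS cells, which lack lineage markers and carry Kit and Sca1, sorted from the bone marrow of recipients with a CD73-/- genotype (KO, 1 library) and of wild-type recipients (WT, 2 libraries). CD73 sits on the cell surface, where it makes adenosine from extracellular AMP. The sources used here do not give the strain, the age, the transplant procedure or the origin (donor or host) of the LKS cells, and the labels also call the cells LLP without explaining the term. Nothing in the labels says that the WT libraries came from separate animals, so p-values measure only the spread between these libraries, which may be technical.

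The respiratory chain passes electrons from NADH, through complex I, or from succinate, through complex II, to ubiquinone, then by complex III and cytochrome c to complex IV, which reduces oxygen. Complexes I, III and IV pump protons across the inner mitochondrial membrane, and complex V, the ATP synthase, makes ATP from the returning flow. Apart from complex II, each complex joins nuclear-encoded subunits with a few that the mitochondrial genome encodes. Blood stem cells are known for relying little on respiration while quiescent and for raising it when they divide or differentiate.

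The libraries held 264704 gene-level counts in KO, against 361638 and 324954 in WT replicates 1 and 2. Levels are given as CPM, the counts scaled to a common library total. A gene with 0 counts may hold up to 3 at this depth, which is 11.3 CPM in KO, against 8.30 and 9.23 CPM in WT. Such floors and the Poisson intervals hold counting error alone, since these reads carry no molecular identifiers and several may come from 1 molecule. The targeted gene Nt5e had 0 counts in each library, so it could not check the genotype. All 7 genes listed for the LKS gate and stem cells, among them Kit and Ly6a (Sca1), had counts in each library, with a summed level of 1708 CPM in KO, against 2480 and 2545 CPM in WT. Kit (555 CPM in KO, against 517 and 637 CPM in WT) and Ly6a (136 CPM, against 166 and 58.5 CPM) lay between the WT libraries. Cd34, Flt3, Cd27, Meis1 and Gata2 lay below both. Other lists also moved with the KO library: dendritic cell markers summed to 1863 CPM, against 130.0 and 132.3 CPM in WT, with Siglech, Cd209a, Zbtb46 and Batf3 at 0 in all 3 libraries. Of that sum, MHC class II genes (H2-Ab1, H2-Eb1, H2-Aa) gave 1749 CPM in KO, against 119 and 126 CPM in WT. Clec9a had 27 counts in KO, against 0 and 0 in WT. Megakaryocyte markers summed to 941 CPM in KO, against 501 and 582 CPM in WT, most of it Itga2b, with Gp1bb and Ppbp at 0 in all libraries. Erythroid markers summed to 691 CPM in KO, against 453 and 129 CPM in WT, with 5 of 11 at 0 in all libraries. Of that sum Hbb-bt gave 431 CPM in KO, against 418 and 129 CPM in WT. Epor had 25 counts in KO, against 3 and 0 in WT, and Car1 had 20, against 0 and 0. By fold change 0 of the 4 tested erythroid markers were lower in KO, against 56.9% of all genes. Mature neutrophil markers summed to 378 CPM in KO, against 830 and 1148 CPM in WT. Ribosomal RNA precursor reads (Rn45s) made up 2.07% of KO counts, against 1.33% and 1.46% of WT counts. The part of these differences in the values that follow was not tested, and in sorted cell pools fewer cells of a type and less RNA per cell cannot be told apart.

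The comparison asked how the subunit genes of complexes I to V stood in LKS cells of CD73-deficient recipients beside those of WT recipients. In total they gave 9652 CPM (95% Poisson interval 9282 to 10034) in KO, against 8915 CPM (8610 to 9228) and 8924 CPM (8603 to 9255) in WT, so the KO total was 1.08 times the WT mean and its interval lay above both WT intervals. The complexes differed more than this total. Complex I and complex IV genes summed to more in the KO library than in either WT library, complex III genes to less, and complex II and complex V genes lay between the WT libraries. Single genes ranged far more widely than these sums, in both directions.

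In complex I, the entry point for electrons from NADH, the summed level was 3056 CPM (95% Poisson interval 2849 to 3274) in KO, against 2588 CPM (2425 to 2760) and 1733 CPM (1592 to 1882) in WT replicates 1 and 2. In complex III, which hands electrons to cytochrome c, it was 657 CPM (563 to 763) in KO, against 879 CPM (785 to 981) and 1514 CPM (1383 to 1654) in WT. In complex IV, the oxidase, it was 2248 CPM (2071 to 2436) in KO, against 1582 CPM (1455 to 1717) and 1803 CPM (1660 to 1955) in WT. In these 3 complexes the KO interval did not overlap either WT interval, but for complexes I and III the WT intervals did not overlap each other either.

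Complex II gave 510.0 CPM (428 to 604) in KO, against 495 CPM (425 to 573) and 837 CPM (741 to 943) in WT. Complex V gave 3094 CPM (2886 to 3313) in KO, against 3299 CPM (3114 to 3492) and 2890 CPM (2708 to 3081) in WT. In both complexes the KO sum lay between the WT sums. The WT libraries themselves were 1.49-fold apart for complex I, 1.69-fold for complex II and 1.72-fold for complex III, against 1.14-fold for complexes IV and V. The 3 libraries allow no exact permutation p below 0.333 for a sum, so no test is given.

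Set against the WT mean ± SD (n = 2), the KO sum was 896 CPM higher than 2160 ± 605 CPM for complex I and 555 CPM higher than 1692 ± 157 CPM for complex IV. For complex III the KO sum stood at 0.549 times the WT mean of 1197 ± 449 CPM. The log2 ratio of KO to the WT mean was 0.50 for complex I, and with each WT library taken singly it was 0.24 (replicate 1) and 0.82 (replicate 2). For complex III it was -0.86, and singly -0.42 and -1.20. For complex IV it was 0.41, and singly 0.51 and 0.32. For complex II it was -0.39, and singly 0.04 and -0.71, so its direction depended on the WT library. For complex V it was -0.0001, and singly -0.09 and 0.10.

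**Figure D1:**
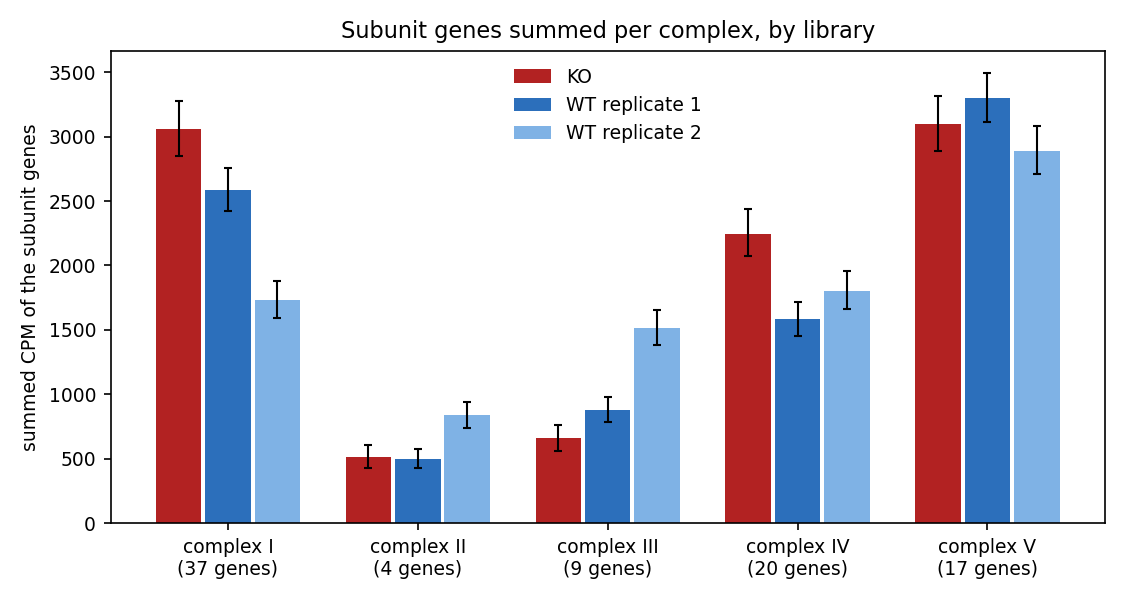
Summed CPM of the subunit genes of each complex (vertical axis) in the KO library and WT replicates 1 and 2 (bars), with 95% Poisson counting intervals as error bars. The KO bar is the tallest of the 3 for complexes I (3056 CPM) and IV (2248 CPM) and the shortest for complex III (657 CPM).

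Within a library, counts of complex III genes amounted to 0.215 of those of complex I genes in KO, against 0.340 and 0.874 in WT replicates 1 and 2. Relative to complex IV genes they amounted to 0.292 in KO, against 0.556 and 0.840 in WT. Both ratios were lowest in KO. For the ratio to complex I genes the WT libraries lay further from each other than KO lay from WT replicate 1. For the ratio to complex IV genes this held by difference but not by fold. No single gene carried the placing of complexes I, III and IV by the order of the sums. Whether the intervals stay apart with a member left out was not examined. With any 1 member left out, the KO sum stayed above both WT sums in 37 of 37 cases for complex I. It did so in 20 of 20 for complex IV, and stayed below both in 9 of 9 for complex III. Leaving out the 8 members at 0 in every library (Ndufs5 and complex IV forms) could not change a sum. The placing of complexes II and V did rest on single genes. Complex II lay between the WT sums in 2 of 4 cases and below both without Sdhb or Sdhd, and complex V lay above both without Atp5a1 (2765 CPM in KO, against 2403 and 2536 CPM in WT).

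No member passed the test of single genes. Of 75 members tested, 0 had an adjusted p under 0.05 (edgeR quasi-likelihood test, Benjamini-Hochberg adjustment over 7984 genes), against 0.100% of all genes higher and 0% lower. At an unadjusted p under 0.05 there was 1 higher member, Cox6b2, and there were 3 lower ones, Uqcrc2, Cox6b1 and Ndufa10, against 3.53% of all genes higher and 6.51% lower. DESeq2 also called 0 members, against 0.438% of all genes (35 of 7984), with 6 members at an unadjusted p under 0.05, against 13.2% of all genes. It gave no adjusted p to some members, such as Uqcrc2, Ndufa10 and Ndufs8, so these could not be called. The 7984 genes include those without an adjusted p. The median log2 fold change was 0.10 over the tested members and -0.31 over all tested genes, and 38 of 75 members were positive, against 43.1% of all genes. With WT replicate 1 as the sole WT library the members' median was 0.30, and with WT replicate 2 it was 0.07. By complex the median was -0.05 for I, 0.10 for II, -0.82 for III, 0.49 for IV and 0.16 for V.

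**Figure D2:**
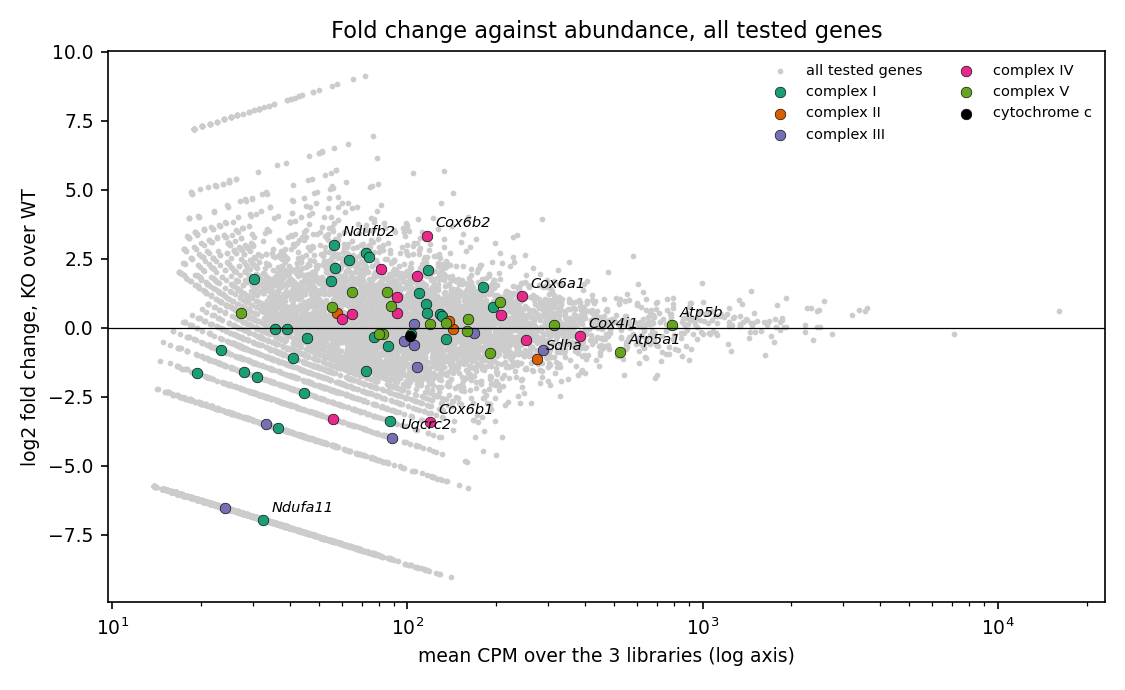
Log2 fold change of KO over WT (vertical axis) against mean CPM over the 3 libraries (horizontal log axis) for all 7984 tested genes in grey and the 75 tested members coloured by complex. Members lie within the cloud of all genes, from -6.96 for Ndufa11, which had 0 KO counts, to 3.34 for Cox6b2.

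By size, 67 members reached 20 counts in at least 1 library. The KO level lay above both WT levels in 23 of them (34.3%), against 29.7% of the 6377 genes of that abundance. It lay below both in 17 (25.4%), against 39.1%, and between them in 27 (40.3%), against 31.1%. In KO, 14 of them (20.9%) were at least 2-fold higher than in each WT library on CPM plus 1, against 12.0% of those genes. In turn 8 (11.9%) were at least 2-fold lower, against 22.6%. Measured from WT replicate 1 by itself, 22 members (32.8%) were 2-fold higher, against 22.9% of genes, and 15 (22.4%) lower, against 33.2%. From WT replicate 2 by itself, 23 (34.3%) were higher, against 25.5%, and 11 (16.4%) lower, against 33.8%. With at least 50 counts required, 5 of 35 members (14.3%) were higher, against 9.25% of genes, and 4 (11.4%) lower, against 17.9%. The higher members were 9 of complex I, 4 of complex IV and 1 of complex V, and the lower ones 3 of complex I, 2 each of complexes III and IV and 1 of complex II.

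The WT libraries were also far apart from each other. The WT pair differed at least 2-fold in 37 of the 67 members (55.2%), against 52.8% of genes of that abundance. The WT counting intervals did not overlap in 31 of the 67 (46.3%), for which the share over all genes was not computed. Of the 8 members that reached 100 counts in a library, 1 (Cox6a1) was 2-fold higher and 1 (Sdha) 2-fold lower in KO, against 5.57% and 9.35% of the 952 genes in that class. For these 8 the log2 fold changes ran from -1.12 to 1.15. Among the 32 members with 20 to 49 counts at most, they ran from -6.96 to 3.01.

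**Figure D3:**
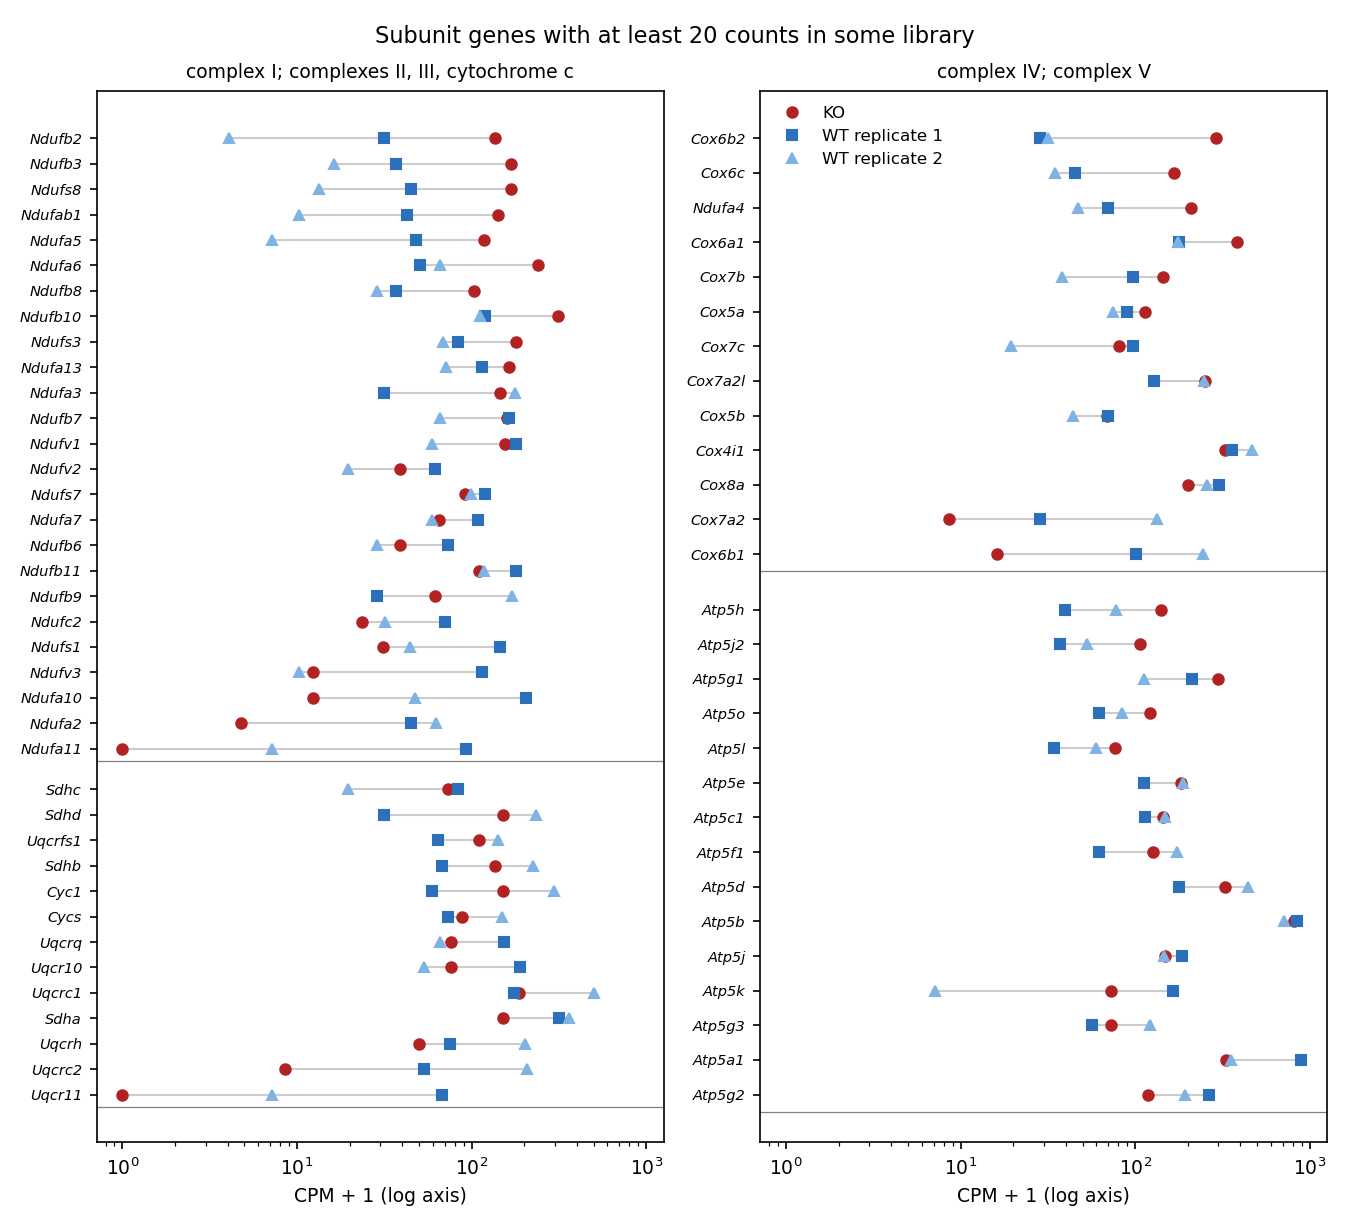
CPM plus 1 (horizontal log axis) of 66 of the 67 members that reached 20 counts in at least 1 library, in KO (circles), WT replicate 1 (squares) and WT replicate 2 (triangles), ordered by fold change within each block. KO lies right of both WT symbols for Ndufa6 (238 CPM) and Cox6b2 (291 CPM), left of both for Cox6b1 (15.1 CPM) and Sdha (151 CPM), and between widely spaced WT symbols for Atp5k.

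Complex I genes fall into an N module that oxidizes NADH, a Q module that reduces ubiquinone and a P module in the membrane. The Q module genes summed to 1118 CPM in KO, against 650 and 428 CPM in WT, and 5 of 7 had a positive log2 fold change. The P module genes summed to 1594 CPM in KO, against 1327 and 1012 CPM in WT, with 8 of 17 tested members positive. The N module genes summed to 344 CPM in KO, against 611 and 283 CPM in WT, with 2 of 8 positive. Over all tested genes 43.1% had a positive log2 fold change, which is near the share in the P module. By sum, the Q and P modules were above both WT libraries and the N module between them.

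In the Q module, Ndufa6 had 63 counts in KO, against 18 and 21 in WT, or 238 CPM against 57.2 ± 10.5 CPM (SD, n = 2). The KO value lay clear of a close WT pair, with a log2 fold change of 2.09 (SE 1.15, adjusted p 0.56). Ndufs8, which holds iron-sulphur clusters that carry electrons towards ubiquinone, had 44 counts in KO, against 16 and 4 in WT. Ndufs3, a subunit of the same arm, had 47 counts in KO, against 30 and 22. Ndufa5 had 31 in KO, against 17 and 2.

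In the P module, Ndufb10 had 82 counts in KO, against 43 and 36 in WT, or 310 CPM against 115 ± 5.74 CPM (SD, n = 2; log2 fold change 1.47, SE 0.97, adjusted p 0.67). Per length it stood at 495 FPKM in KO, against 188 and 176 FPKM in WT, which are the authors' transcript values summed over the gene. Ndufb3 had 44 counts in KO, against 13 and 5 in WT, and Ndufb2 had 36, against 11 and 1. Ndufb8 had 27 in KO, against 13 and 9, and Ndufab1, the mitochondrial acyl carrier protein, 37, against 15 and 3. In each of these genes KO was the highest library, but for Ndufb2 and Ndufab1 the WT libraries were 9.88-fold and 4.49-fold apart.

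Other P module genes went the other way. Ndufa10 had 3 counts in KO, against 74 and 15 in WT (log2 fold change -3.39, SE 1.73, adjusted p 0.50). Ndufa11 had 0 counts in KO, against 33 and 2, which makes it at least 4.30-fold lower than the WT mean at a floor of 3 KO counts. In both genes most of the WT level came from WT replicate 1. Ndufa2, of the N module, had 1 count in KO, against 16 and 20 in WT, and its KO interval lay below both. Ndufv1, which binds the FMN that takes electrons from NADH, had 41 counts in KO, against 65 and 19, and lay between the WT libraries. Ndufb11 had 29 in KO, against 65 and 38. Ndufs5 had 0 counts in all libraries, and Ndufb4 and Ndufb4c each had 0, 0 and 3 in KO and WT replicates 1 and 2.

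Complex II, succinate dehydrogenase, has no mitochondrially encoded subunit and also serves the tricarboxylic acid cycle. Sdha, its flavoprotein, had 40 counts in KO, against 114 and 117 in WT, or 151 CPM against 338 ± 31.7 CPM (SD, n = 2). The KO interval (108 to 206 CPM) lay below both WT intervals, but the gene did not pass (log2 fold change -1.12, SE 0.88, adjusted p 0.76). Sdhb, the iron-sulphur subunit, had 36 counts in KO, against 24 and 73. The membrane anchors Sdhc and Sdhd had 19 and 40 in KO, against 30 and 11 in WT replicate 1 and 6 and 76 in WT replicate 2. For these 3 genes KO lay between WT libraries that were at least 3.38-fold apart. Without Sdha the complex summed to 359 CPM in KO, against 180 and 477 CPM in WT, but without Sdhb it gave 374 CPM in KO, against 429 and 612 CPM, and without Sdhd 359 CPM in KO, against 465 and 603 CPM.

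In complex III the log2 fold change was negative in 8 of 9 tested members, against 56.9% of all genes. Of its 8 members with 20 counts, KO lay below both WT libraries in 3 and between them in 5. Uqcrc2, a core protein on the matrix side, had 2 counts in KO, against 19 and 67 in WT (log2 fold change -3.98, SE 1.81, adjusted p 0.41), and its KO interval lay below both WT intervals. Its partner Uqcrc1 had 49 counts in KO, against 63 and 163 in WT, or 185 CPM against 174 and 502 CPM, which lies between the WT libraries, and the sign of its log2 fold change turned (0.12) without WT replicate 2. Among the small subunits, Uqcr11 had 0 in KO, against 24 and 2, at least 3.20-fold lower than the WT mean. Uqcrh, the hinge protein, had 13 in KO, against 27 and 65, and Uqcrb had 1, against 18 and 15. Uqcrb missed the size rule because it had under 20 counts in each library.

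The electron carriers themselves were not among the low genes. Cyc1, cytochrome c1, had 40 counts in KO, against 21 and 96 in WT. Uqcrfs1, the Rieske iron-sulphur protein, had 29, against 23 and 46, and was the 1 positive member of complex III (log2 fold change 0.14). Cycs, the mobile cytochrome c, had 23 in KO, against 26 and 48, or 86.9 CPM in KO, against 71.9 and 148 CPM in WT. Uqcr10 and Uqcrq had 20 counts each in KO, against 68 and 55 in WT replicate 1 and 17 and 21 in WT replicate 2, so KO lay close to WT replicate 2.

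In complex IV, the paralogues Cox6b1 and Cox6b2 lay on opposite sides of WT. They encode alternative forms of subunit VIb, which faces the intermembrane space. Cox6b1 is the broadly expressed form, and Cox6b2 is known as the testis form. Cox6b2 had 77 counts in KO, against 10 and 10 in WT, or 291 CPM against 29.2 ± 2.21 CPM (SD, n = 2). Its log2 fold change was 3.34 (SE 1.18, unadjusted p 0.0045, adjusted p 0.23), the smallest adjusted p of any member. Cox6b1 had 4 counts in KO, against 36 and 79 in WT, or 15.1 CPM against 171 ± 102 CPM (log2 fold change -3.42, SE 1.50, adjusted p 0.37). Neither gene's KO interval overlapped a WT interval, and neither passed.

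Per length, Cox6b2 made up 93.9% of the pair's FPKM in KO, against 25.5% and 12.1% in WT. The exchange of ranks within the pair was not tested. Cox6b2 lies on chromosome 7 at 4751792 to 4753094 and Cox6b1 at 30616971 to 30626114 of the same chromosome (GRCm38, the assembly behind mm10), and both are annotated as protein-coding. The 6 annotated Cox6b2 transcripts had 37 to 77 counts in KO and 10 in each WT library. In KO the authors' FPKM was placed on 1 of these transcripts alone. The 150 bases before the start of each gene are shown, 5′ to 3′, because these paralogues stood on opposite sides of WT in the KO library. Capitals mark a match to the ETS-type letters CCGGAAG on either strand.
Cox6b2 (chr7:4753095-4753244, minus strand): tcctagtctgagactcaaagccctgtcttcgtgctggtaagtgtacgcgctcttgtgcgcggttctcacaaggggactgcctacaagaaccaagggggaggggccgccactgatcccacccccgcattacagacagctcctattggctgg
Cox6b1 (chr7:30626115-30626264, minus strand): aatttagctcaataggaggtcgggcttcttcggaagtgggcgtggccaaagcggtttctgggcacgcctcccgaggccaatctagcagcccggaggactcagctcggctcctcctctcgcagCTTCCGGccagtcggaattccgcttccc
The stretch before Cox6b1 holds 1 such match and the stretch before Cox6b2 holds none.

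The other broadly expressed complex IV subunits were spread on both sides. Cox6a1 had 101 counts in KO, against 64 and 57 in WT, or 382 CPM against 176 ± 1.11 CPM (SD, n = 2; log2 fold change 1.15, SE 0.84, adjusted p 0.74), with the KO interval above both WT intervals. Ndufa4 had 55 in KO, against 25 and 15, and Cox6c had 44, against 16 and 11. Cox4i1, a subunit that ATP binds to regulate the enzyme, had 86 in KO, against 129 and 152, or 325 CPM against 412 ± 78.5 CPM. Cox8a had 53, against 109 and 83. Cox7a2 had 2 in KO, against 10 and 43, while Cox7a2l, which ties complexes III and IV into supercomplexes, had 66, against 46 and 80, or 249 CPM in KO, against 127 and 246 CPM in WT. Without Cox6b2 the complex still summed to 1957 CPM in KO, against 1554 and 1773 CPM in WT.

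The heart and muscle forms Cox6a2, Cox7a1 and Cox8b had 0 counts in all 3 libraries, as did Cox4i2, Cox7b2, Cox8c and Ndufa4l2. A total of 8 members, these 7 and Ndufs5, were at 0 throughout. Cox6b2 was thus the sole tissue-restricted complex IV form with counts, in WT as in KO. Per length and over the 3 libraries, Cox4i1 had the highest mean of any member at 519 FPKM (443 in KO, against 482 and 634 in WT). It was followed by Cox8a at 467, Cox6a1 at 436 and Atp5b at 422 FPKM, but Cox6a1 led in KO at 682 FPKM and Cox8a in WT replicate 1 at 556 FPKM.

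**Figure D4:**
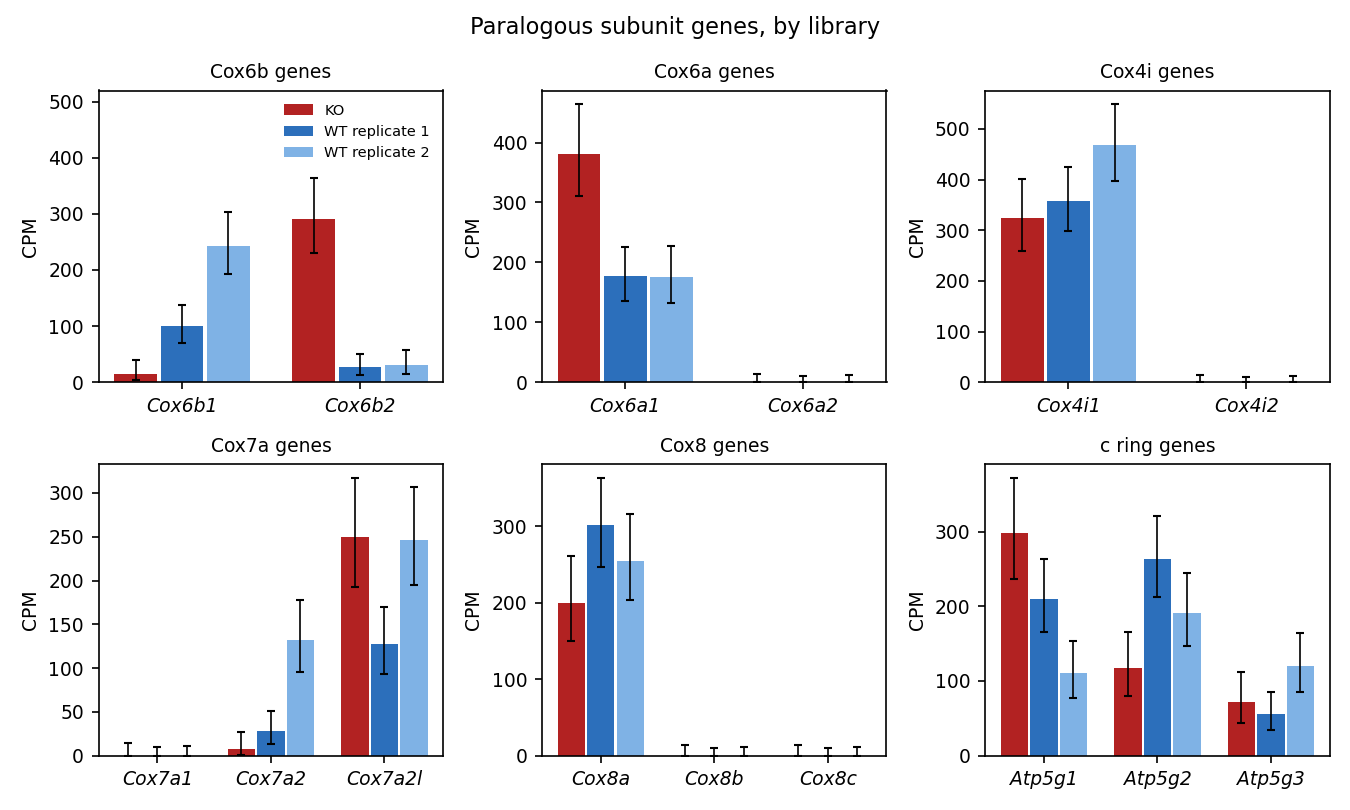
CPM (vertical axes) of paralogous complex IV genes and of the 3 c ring genes of complex V in KO and WT replicates 1 and 2 (bars), with 95% Poisson counting intervals as error bars. Cox6b2 is the taller Cox6b gene in KO (291 CPM) and Cox6b1 in both WT libraries (99.5 and 243 CPM), while Cox6a2, Cox4i2, Cox7a1, Cox8b and Cox8c are at 0.

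Complex V had the KO sum closest to its WT mean of the 5 complexes. Atp5b, the catalytic beta subunit and the most abundant member by mean CPM over the 3 libraries, had 214 counts in KO, against 305 and 230 in WT, or 808 CPM against 776 ± 95.9 CPM (SD, n = 2; log2 fold change 0.10, SE 0.50, adjusted p 0.97). Its partner Atp5a1, the alpha subunit, had 87 in KO, against 324 and 115, or 329 CPM against 896 and 354 CPM. KO lay close to WT replicate 2, and WT replicate 1, where Atp5a1 exceeded Atp5b, stood apart. These 2 genes made up 36.8% of complex V counts in KO, against 52.7% and 36.7% in WT. Atp5d, the delta subunit of the F1 head, had 86 in KO, against 64 and 144. Atp5j2, the f subunit in the membrane, had 28, against 13 and 17, and was the 1 complex V member at least 2-fold higher.

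Atp5g1, Atp5g2 and Atp5g3 encode precursors of the same mature c subunit, which forms the rotor ring. Atp5g1 had 79 counts in KO, against 76 and 36 in WT, Atp5g2 had 31, against 95 and 62, and Atp5g3 had 19, against 20 and 39 (71.8 CPM in KO, against 55.3 and 120.0 CPM in WT). Per length, Atp5g1 made up 59.0% of the 3 genes' FPKM in KO, against 37.1% and 24.4% in WT, and Atp5g2 26.4%, against 52.9% and 48.0%. Summed over the ring, the level was 487 CPM in KO, against 528 and 422 CPM in WT, so the KO library lay between the WT libraries in the sum while its leading gene differed. The peripheral stalk genes summed to 533 CPM in KO, against 346 and 477 CPM. Among small subunits, Atp5k had 19 in KO, against 59 and 2, the widest WT ratio of any member at 26.5-fold.

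Binding motifs of factors known to act on respiratory chain genes were searched in the window from 250 bases before to 50 after the start (RefSeq, GRCm38.p6), on both strands, in the 70 members and 27025 genes with an entry. The letters GCATGCGC, from the palindrome that NRF1 binds, stood in 11 members (15.7%), against 3.05% of genes. The ETS letters CCGGAAG stood in 16 members (22.9%), against 9.93%. The YY1 letters AAGATGGC stood in 10 members (14.3%), against 3.19%. None of these words contains another, but the NRF1 word can overlap its own reverse complement. The NRF1 word stood in 2 of the 13 members at least 2-fold higher in KO that had an entry, Ndufa6 and Cox6a1, and in 2 of the 6 that were 2-fold lower, Ndufa11 and Uqcr11. Members on both sides of the comparison thus held the NRF1 word. The ETS word also stood on both sides, in 3 of the 13 higher members (Ndufs3, Ndufs8 and Cox6a1) and 2 of the 6 lower ones (Uqcr11 and Cox6b1). The YY1 word stood in 2 of the 13 (Ndufb8 and Atp5j2) and 0 of the 6. A match is a description of letters, not a site. The 150 bases before the start of Ndufa6 and Ndufa11 are shown, 5′ to 3′, since these complex I genes hold the NRF1 word there and stood above and below both WT libraries in KO. Capitals mark the word on either strand, which in Ndufa11 is present on both strands in overlap.
Ndufa6 (chr15:82354292-82354441, minus strand): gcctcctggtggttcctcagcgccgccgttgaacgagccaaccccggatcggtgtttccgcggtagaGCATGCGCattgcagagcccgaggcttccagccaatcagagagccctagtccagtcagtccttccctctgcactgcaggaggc
Ndufa11 (chr17:56717612-56717761, plus strand): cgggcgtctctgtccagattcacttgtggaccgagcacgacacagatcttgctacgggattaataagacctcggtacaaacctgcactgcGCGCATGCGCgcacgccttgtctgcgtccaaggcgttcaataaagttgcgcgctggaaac

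Genes that build or regulate the chain did not pass the test either, where 0.100% of all tested genes were called higher and 0% lower. Of 30 tested assembly factors, with the complex V inhibitor Atpif1 among them, 0 rose and 0 fell, and 13 (43.3%) were positive, against 43.1% of all genes. By size 3 of 23 (13.0%) were 2-fold higher in KO, against 12.0% of genes of that abundance, and 6 (26.1%) were 2-fold lower, against 22.6%, so both shares lay near those of all genes. For complex I, Timmdc1 had 23 counts in KO, against 1 and 4 in WT, and Ndufaf8 20, against 3 and 1. Acad9 had 9, against 29 and 25, Tmem186 had 2, against 31 and 6, and Ndufaf4 had 12, against 38 and 15. For complexes II and III, Sdhaf1 had 26, against 11 and 1, Sdhaf2 had 9, against 8 and 6, Uqcc3 had 23, against 35 and 17, and Ttc19 had 0, against 78 and 3. For complex IV, the haem enzyme Cox10 had 0 counts in KO, against 19 and 39 in WT, and Cox19 had 0, against 1 and 74. Coa5 had 10, against 36 and 43, and Cox14 had 22, against 40 and 45. The 2 most abundant of complex V, Atpif1 and Atpaf2, had 100 and 40 in KO, against 94 and 13 in WT replicate 1 and 97 and 29 in WT replicate 2.

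Of 9 tested regulators of respiratory chain genes 0 passed, against 0.100% of all genes higher and 0% lower. Of the 9, 7 were negative, against 56.9% of all genes. By size 1 of 9 (11.1%) was 2-fold higher, against 12.0% of genes of that abundance, and 4 (44.4%) were 2-fold lower, against 22.6%. The 4 were Tfam, Gabpa, Pprc1 and Yy1. Tfam, which packages and transcribes mitochondrial DNA, had 1 count in KO, against 20 and 19 in WT. Gabpa, the ETS-family factor NRF2 alpha, had 0, against 34 and 12, and Pprc1, a PGC-1-related coactivator, had 4, against 62 and 20. Yy1 had 9, against 30 and 23. Nrf1 had 28 in KO, against 7 and 8, and was the 1 at least 2-fold higher. Gabpb1 and Polrmt, the 2 most abundant regulators by mean CPM, had 25 and 20 in KO, against 37 and 24 in WT replicate 1 and 54 and 35 in WT replicate 2.

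The tricarboxylic acid cycle feeds complexes I and II. Its list here also held genes of the pyruvate dehydrogenase complex, which is not part of the cycle itself. In that list 0 of 18 tested genes passed, against 0.100% of all genes higher and 0% lower. Of the 18, 10 (55.6%) were positive, against 43.1% of all genes. By size 4 of 16 (25.0%) were 2-fold higher, against 12.0% of genes of that abundance, and 2 (12.5%) were 2-fold lower, against 22.6%. The KO sum of 2478 CPM lay between 1941 and 2840 CPM in WT. Higher by 2-fold in KO were Ogdh (102 counts, against 68 and 58 in WT), Pdhb (75, against 43 and 29), Dlat (26, against 13 and 14) and Pdhx (21, against 12 and 0), parts of the oxoglutarate and pyruvate dehydrogenase complexes. Of these, Ogdh alone belongs to the cycle, so the share of higher genes is that of the list and not of the cycle. Lower by 2-fold were the isocitrate dehydrogenases Idh2 (32, against 142 and 112) and Idh3b (17, against 73 and 119).

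Several members overlap another gene on the opposite strand, and the use of strand in counting is not stated. Atp5j overlaps Gabpa by 701 bases (0 counts in KO, against 34 and 12 in WT). Atp5f1 overlaps Wdr77 by 731 bases (7, against 38 and 75). Ndufs1 overlaps Eef1b2 (392, against 406 and 336) by 9 bases alone. Among members described above, Ndufa2 overlaps Tmco6 by 66 bases (0, against 24 and 16). Cox4i1 overlaps Emc8 by 352 bases (0, against 36 and 42), and Ndufb2, higher in KO, overlaps Braf by 146 bases (2, against 11 and 26). Reads from such pairs cannot be told apart where they overlap. Ndufb4 and Ndufb4c are near copies, and the many processed pseudogenes of these families could also share reads, so counts of single small subunits are uncertain.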

How the data were processed

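RNA from sorted LKS cells was extracted with the RNeasy micro kit and made into libraries with NEB kits, per the labels' protocols. The authors deposited whole-number counts for each RefSeq transcript and, beside them, FPKM values that are split over the transcripts of a gene. The submitters' processing notes name STAR and mm10 without versions or roles. Which tools gave the counts and FPKM, and whether strand was used, is not stated there. The gene count was the highest count over the rows of a symbol, since transcripts repeat shared reads, and 30 members had more than 1 row. CPM was taken on the total of gene counts, 264704 to 361638 per library. Gene FPKM, the sum over rows, served for levels compared between genes.

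Groups came from the sample titles. The test across all genes was the quasi-likelihood F-test of edgeR 4.0.16 (R 4.3.3) after filterByExpr and TMM scaling, with Benjamini-Hochberg adjustment and a threshold of 0.05. Its 1 residual degree of freedom comes from the WT pair, and the KO library is assumed to vary like it. SE is the size of the log2 fold change over the root of F. The size rule asked for 20 counts in at least 1 library and a 2-fold difference from each WT library in the same direction on CPM plus 1. Intervals are exact Poisson (95%). In 3 simulations of KO against WT over 7253 to 7290 genes, with 200 genes changed 16-fold, the test called 78.7% of raised and 12% of lowered genes with 11 false calls in all. The changed genes were drawn above a minimum mean CPM that some tested members, such as Ndufa11 (32.5 CPM) and Ndufb2 (56.5 CPM), did not reach. These rates therefore do not cover such members.

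Members, lists and tests were chosen with earlier results of these data known. Named genes were members past the test or the size rule, the 4 most abundant of each complex by CPM, complex II, the paralogue groups, and from each other list those past either rule and its 2 most abundant. Chosen after their values were seen were Ndufs5, Ndufb4, Ndufb4c, Uqcrb, Uqcrfs1, Uqcrq, Atp5k, Cox7b2, Eef1b2, Wdr77, Tmco6, Emc8, Braf, the single marker genes and those in the closing section. Alternatives were other scalings, filters and row summaries, DESeq2 1.42.0, FPKM and leaving out each WT library. Locations and sequences are from RefSeq on GRCm38.p6, and overlaps from GENCODE on GRCm38. Genes of the mitochondrial genome were not analysed here. The values of 1 member are not reported here by name.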

Additional observations from a re-analysis of the deposited data

How the results depend on the processing

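The count of members past the edgeR test stayed at 0 under all 6 other fits: DESeq2 size factors, library totals alone, no filter beyond 1 count, at least 10 counts in every library, mean count over rows, and the DESeq2 test. The median log2 fold change of the members was -0.067 without the filter, over 80 members that include genes of very few counts, and ran from 0.069 to 0.30 with a WT library left out. Leaving out a WT library gave 22 to 23 members higher by 2-fold, against 14 with both, and 11 to 15 lower, against 8. By construction fewer libraries then have to be passed. A minimum of 50 counts left 5 higher and 4 lower, from fewer genes. TMM-scaled CPM, mean counts and FPKM left both numbers within 1.5 times, as did a pseudocount of 10 CPM, added after seeing the data. Leaving out a WT library gave log2 ratios of the summed CPM from 0.24 to 0.82 for complex I, from -0.71 to 0.04 for complex II, from -1.20 to -0.42 for complex III, from 0.32 to 0.51 for complex IV and from -0.09 to 0.10 for complex V. Without the most abundant genes of each library, an alternative added after seeing the data, complex V gave 0.21, since Atp5a1 and Atp5b then drop out. With both WT libraries kept, 389 of 391 refitted fold changes of 70 named genes kept their sign. None with an adjusted p passed the threshold. The DESeq2 test gave no adjusted p to some named genes, such as Uqcrc2 and Ndufa10, so these could not pass it. The 2 others were Atp5b at -0.022 and Atp5d at -0.012 with at least 10 counts in every library, where the cause was not tested. With 1 WT library left out, which gives no test, 14 of the 70 changed sign, 11 of them members: Atp5b, Atp5d, Atp5g3, Cyc1 (1.40 without WT replicate 2, against -0.18 with both), Cycs, Ndufv1, Sdhb (1.06, against -0.05), Sdhc, Sdhd, Uqcr10 and Uqcrc1. No paired analysis was possible because the KO library carries no replicate number and stands alone. At this depth 21 of 88 members had under 20 counts in each library, 8 of them at 0 throughout.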

Other observations

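Genes linked to the chain or the ATP synthase whose symbols lie outside the naming rule gave these values. Atpif1, the inhibitor that stops the ATP synthase from running backwards, had 378 CPM in KO, against 260 and 299 CPM in WT replicates 1 and 2 (log2 fold change 0.48, edgeR adjusted p 0.90). Usmg5, a small membrane subunit of the ATP synthase, had 9 counts in KO, against 23 and 6 in WT, and lay between the WT libraries. Minos1, which shapes the cristae where the chain sits, had 280 CPM in KO, against 124 and 218 CPM in WT (log2 fold change 0.75, adjusted p 0.84).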
